A study of Mus musculus with 20 samples.

Results

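The genes described here are 10 germline genes of the mouse, Cox6b2, Dazl, Ddx4, Mael, Sycp1, Sycp3, Mov10l1, Tdrd1, Asz1 and Slc25a31, listed as genes that body cells keep silent by methylating their promoters. Their members are the 100-bp bins that lay within 2 kb of any RefSeq transcription start site (TSS) of these genes, which gave 98 bins of the 247364 bins near a TSS of any gene and of the 1201951 bins deposited. The list was drawn up from levels in these same samples: 9 genes were chosen by their high methylation, and Cox6b2 was selected on its low level and a higher level after 10 cycles. The levels of all 10 genes, and the 10-cycle difference of Cox6b2, are therefore given as descriptions and carry no test.

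Hematopoietic stem cells (HSCs) were sorted from the bone marrow of female C57BL/6J mice that were 3 months old at the start of the study. The mice received fluorouracil (5FU), a drug that kills dividing cells and drives the surviving HSCs to divide, by intraperitoneal injection every 3 weeks, for 0, 2, 4 or 10 cycles. DNA methylation was measured by reduced representation bisulfite sequencing 1 month after the last cycle. The 4 groups are called 0x (n = 4, without 5FU), 2x (n = 6), 4x (n = 4) and 10x (n = 6), and all 20 samples share the C57BL/6 genotype. The labels do not state that each sample is a separate mouse, so the p-values below measure the spread between samples, which may be technical. HSCs were gated as Lin- cKit+ Sca1+ CD34- Flk2- CD150+ cells while the labels name the tissue as blood. Within 1 kb of the TSS, 11 of 12 genes of blood cells and HSCs had bins, with a median methylation of 2.84%, against 83.1% for 5 lymphoid genes and 91.0% for 2 of 3 genes of other tissues. Pairs of samples correlated across bins with r between 0.820 and 0.962 (190 pairs). Every measured value is the percentage of methylated reads in a bin, and the number of reads behind it is unknown. Bins that a sample lacked were filled by the authors, as described below.

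Germline genes are needed to make eggs and sperm, and many of them carry a promoter rich in CpG, the dinucleotide at which mammalian DNA is methylated. Most CpG-rich promoters stay free of methylation in every tissue, but a set of germline promoters gains dense methylation in the embryo and stays methylated in body cells. A repressor complex that contains E2F6, MGA and MAX is known to mark many of these promoters through E2F motifs and E-boxes. RNA was not measured in the files used here, so methylation is described without reference to expression.

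The 100 bases before the first curated TSS are shown for 6 of the genes (RefSeq, GRCm38.p6, the assembly also called mm10), because the results turn on CpG content and methylation around these start sites. All run 5′ to 3′ on the strand of the gene, and capitals mark CpG. The first, of Cox6b2, is from chr7:4753095-4753194 (minus strand) and holds 4 CpG, none of which lay in a deposited bin. The others are from Dazl at chr17:50293621-50293720 (minus strand, 8 CpG), Mael at chr1:166238745-166238844 (minus strand, 8 CpG), Sycp1 at chr3:102936101-102936200 (minus strand, 12 CpG), Asz1 at chr6:18109062-18109161 (minus strand, 10 CpG) and Slc25a31 at chr3:40708771-40708870 (plus strand, 11 CpG).
Cox6b2: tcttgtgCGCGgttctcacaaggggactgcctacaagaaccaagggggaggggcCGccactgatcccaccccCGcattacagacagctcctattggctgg
Dazl: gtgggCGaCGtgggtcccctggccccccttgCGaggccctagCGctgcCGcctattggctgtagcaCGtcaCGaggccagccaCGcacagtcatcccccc
Mael: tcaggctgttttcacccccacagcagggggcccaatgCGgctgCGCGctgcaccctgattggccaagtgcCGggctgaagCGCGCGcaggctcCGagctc
Sycp1: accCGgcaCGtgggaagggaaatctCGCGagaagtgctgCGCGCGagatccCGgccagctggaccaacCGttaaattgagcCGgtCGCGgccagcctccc
Asz1: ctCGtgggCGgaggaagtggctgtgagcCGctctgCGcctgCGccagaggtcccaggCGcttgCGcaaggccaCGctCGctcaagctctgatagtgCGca
Slc25a31: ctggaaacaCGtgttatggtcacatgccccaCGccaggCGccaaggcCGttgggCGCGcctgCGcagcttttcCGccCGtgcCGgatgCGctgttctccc

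These stretches lay outside every exon of the genes. In the RefSeq window from 250 bases before to 50 bases after the TSS, Ddx4 held 38 CpG, Dazl 28, Mael 24, Slc25a31 22, Sycp1 21, Mov10l1 20, Asz1 17, Sycp3 15 and Cox6b2 10, against a median of 7 over 32851 promoter windows. Of all windows, 56.5% held fewer CpG than that of Cox6b2. Tdrd1 has 3 such windows, with 20, 25 and 3 CpG. The E-box CACGTG, a palindrome that reads the same on both strands, occurred in windows of 7 genes (Ddx4, Mael, Sycp1, Sycp3, Mov10l1, Tdrd1 and Slc25a31), in 7.15% of all windows and in 11.3% of the 11378 windows with at least 15 CpG. The E2F motif TCCCGC, searched on both strands, occurred in 5 genes (Ddx4, Mael, Sycp1, Sycp3 and Slc25a31), in 19.98% of all windows and in 45.4% of those with at least 15 CpG, so its share in the list is near that of CpG-rich windows. The windows of those same 5 genes held both motifs, as did 1.99% of all windows and 5.04% of those with at least 15 CpG. Neither motif occurred in the windows of Cox6b2, Dazl or Asz1. In the stretches above, the E-box of Sycp1 can be read near the left end as caCGtg, 94 bases before the TSS, and that of Slc25a31 as caCGtg 93 bases before it.

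Before values were compared, bins were sorted by whether their values repeated within a group, because the authors gave a bin that a sample lacked the average of its group. In 41 of the 98 bins a value other than 0 or 100 was repeated in at least 1 group. A further 19 bins were at 0 or at 100 in all 20 samples, 17 of them at 100, and 18 bins had no repeated value but a group that was at 0 or 100 throughout. In the remaining 20 bins every group varied and no value was repeated, and these 20 bins, called varying bins below, carry the tests. Where just 1 member of a group lacked a bin, the group average occurs once there and escapes this rule. The varying bins may therefore still hold filled values. Over all deposited bins the same rule left 84131 bins, or 7.0%. The varying bins covered 8 genes, with 6 in Dazl, 3 in Sycp3, 2 each in Cox6b2, Mael, Sycp1, Tdrd1 and Slc25a31, and 1 in Ddx4. Mov10l1 and Asz1 had none, so their levels are given below but no test was run on them.

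The promoters of 9 of the 10 genes were densely methylated in HSCs of all groups, and Cox6b2 was not. Leaving out Cox6b2, 74 of 87 bins averaged at least 75% over the 20 samples and 5 were under 25%. Within 500 bp of a TSS 50 of 60 of these bins reached 75%, against 17.9% of all deposited bins there. From 501 to 1000 bp it was 16 of 18 against 42.0%, and from 1001 to 2000 bp 8 of 9 against 65.9%. Of the 11 bins of Cox6b2, 8 were under 25%, 1 was in between and 2 were at least 75%, both of these downstream of the gene. By kind of bin, at least 75% was reached in the 9 other genes by 15 of 18 varying bins (the 3 lower ones all from Dazl), 15 of 15 bins with a group at 0 or 100 throughout, 16 of 17 bins at 0 or 100 in all samples and 28 of 37 bins with repeated values. In Cox6b2 the counts were 0 of 2, 1 of 3, 1 of 2 and 0 of 4 in the same order. Taking as the value of a gene the mean of its varying bins, the 8 genes had a median of 90.1%, against 4.71% over the 16543 genes that had such bins, and 6 of the 8 were at least 75%, as were 13.03% of all genes. Over all deposited bins, which include repeated values, the medians were 88.3% for the 10 genes and 44.9% for 31353 genes. In that set 8 of the 10 genes were at least 75%, as were 35.2% of all genes.

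**Figure D1:**
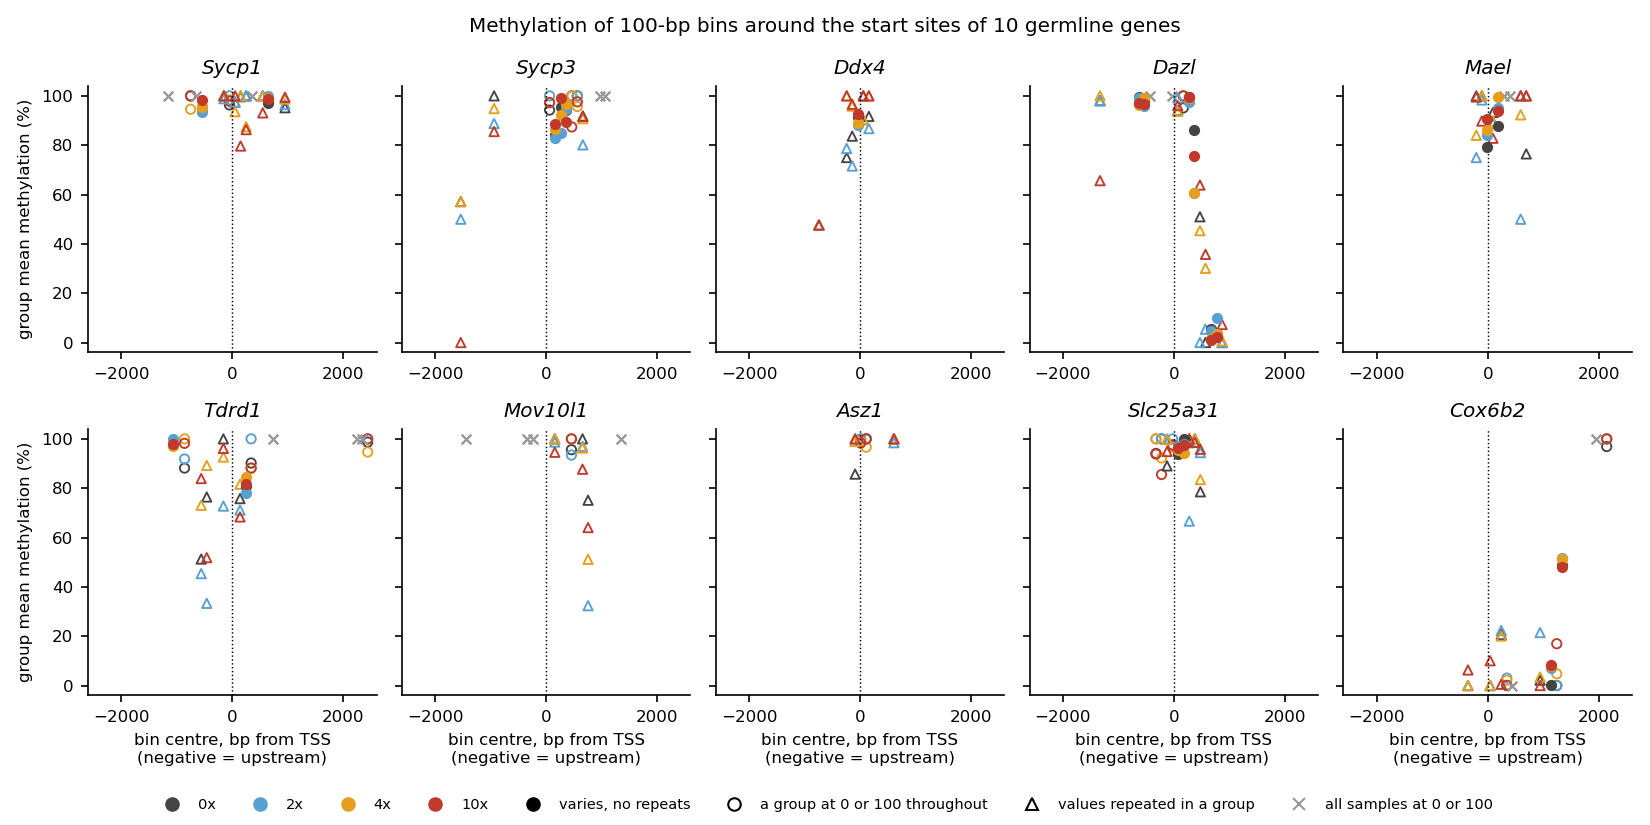
Mean methylation of each 100-bp bin (y axis, percent) by group against the distance of the bin centre from the first curated TSS (x axis, bp), 1 panel a gene. Filled circles are varying bins, open circles bins with a group at 0 or 100 throughout, triangles bins with repeated values and crosses bins at 0 or 100 in all 20 samples. Bins near the TSS sit mostly above 75% in 9 panels, Dazl drops to near 0 downstream, and Cox6b2 sits under 25% around its TSS. A bin of Asz1 at a predicted start site inside the gene lies beyond the axis.

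**Figure D2:**
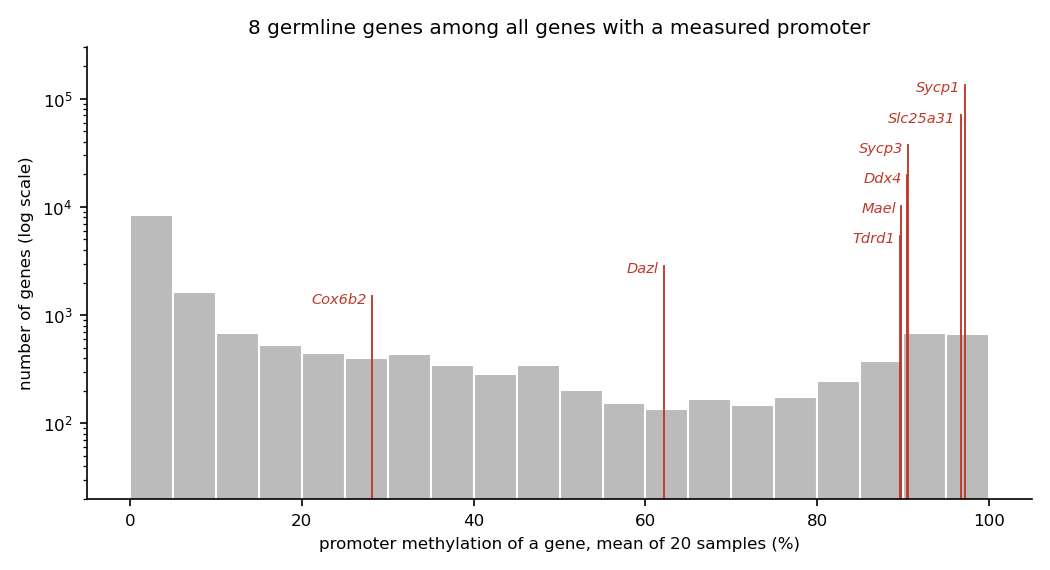
Number of genes (y axis, log scale) by promoter methylation averaged over varying bins and 20 samples (x axis, percent, in steps of 5) for 16543 genes, with red lines for the 8 germline genes that had varying bins. Line heights only separate the names. Most genes lie near 0, 6 germline genes lie between 89.6% and 97.3%, Dazl is at 62.1% and Cox6b2 at 28.2%. The Cox6b2 value comes from bins 1144 and 1344 bp downstream of its TSS, and no bin nearer the TSS enters it.

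Levels were also compared by distance from the TSS. Within 500 bp of a TSS, all varying bins of the genome had a median of 2.68% and 5.396% of 27078 bins reached 75%, while 12 of the 15 varying bins of the 9 densely methylated genes did. From 1001 to 2000 bp the median over all varying bins was 46.1%, and the 9 genes had no varying bin there. At the edge of the windows, the outermost deposited bin inside was at 0% for Asz1, 37.9% for Sycp3, 47.6% for Ddx4 and at least 88.7% for the other 7 genes. None of these was a varying bin, and those of Ddx4, Sycp3, Dazl, Mael and Slc25a31 held repeated values. The Ddx4 bin was listed at 47.6% in all 20 samples, so its level may come from filling. The first deposited bin outside, which lay between 2003 bp (Cox6b2) and 10756 bp (Mael) from a TSS, averaged 100% in all groups for 9 genes. For Cox6b2 it averaged 88.0%, and the group means were 71.9% (0x), 84.5% (2x), 91.1% (4x) and 100% (10x). The spread between samples and any repeated values of this bin are not given here. No test was run on it, and the 10x level was what chose this gene.

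CpG-rich bins near a TSS were rarely methylated in the genome, and mostly methylated in these genes. Of the 15625 varying bins near a TSS that held 10 to 27 CpG, 0.544% reached 75% and the median was 2.10%. Of the 7 such bins in the listed genes, 6 reached 75%, and they came from 5 genes. The exception was a Dazl bin with 17 CpG at 3.10%. Among bins with at most 2 CpG, 41.2% of all 4414 varying bins reached 75%, so a high level was common there.

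**Figure D3:**
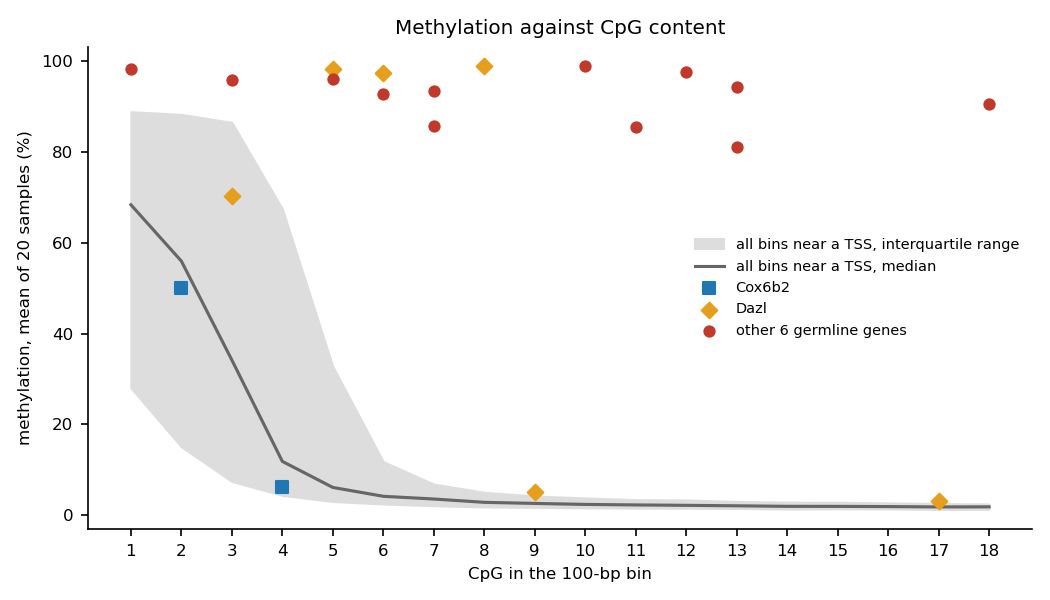
Methylation averaged over 20 samples (y axis, percent) against the number of CpG in a varying bin (x axis). The grey line and band are the median and the interquartile range of all varying bins near a TSS, and points are bins of the germline genes. The band falls to near 0 from about 6 CpG, while 6 of the 7 germline bins with at least 10 CpG lie above 80%.

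Sycp1 and Sycp3 encode proteins of the synaptonemal complex, which holds paired chromosomes together in meiosis. All 13 bins of Sycp1 were at least 93.4%, and its TSS bin (chr3:102936100-102936199, 12 CpG), in which all 2x samples were at 100%, averaged 98.3%. Sycp1 had the highest gene value of the list, at 97.3%, above 98.6% of all genes. Its samples were at 100%, 97.9%, 91.1% and 96.3% in 0x, at 84.3%, 100% and 100% (lowest, median, highest) in 2x, at 100%, 98.1%, 99.5% and 91.5% in 4x and at 95.9%, 98.7% and 100% in 10x. The groups overlapped, and the differences from 0x lay between 0.347 and 2.17 percentage points (points below). Sycp3 had 10 of 11 bins at 75% or more. Its bin 1538 bp upstream was lower, at 37.9%, with values repeated in every group. The gene value of Sycp3 was 91.2% ± 4.42 (SD, n = 4) in 0x, 87.6% ± 3.35 (n = 6) in 2x, 91.8% ± 4.17 (n = 4) in 4x and 92.3% ± 4.55 (n = 6) in 10x, again with overlapping groups.

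Ddx4 and Dazl encode RNA-regulating proteins that mark germ cells, the first a helicase and the second an RNA-binding protein. Ddx4 had 1 varying bin, at its TSS (chr13:112652300-112652399), which with 18 CpG was the most CpG-rich varying bin of the list. It was at 85.1%, 98.7%, 93.0% and 89.7% in 0x, at 70.0%, 93.1% and 95.7% (lowest, median, highest) in 2x, at 76.9%, 93.8%, 94.7% and 90.7% in 4x and at 83.9%, 95.1% and 100% in 10x. Each treated group overlapped with the 0x samples.

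Dazl was methylated on one side and unmethylated on the other. Its 7 deposited bins from 630 bp upstream to 270 bp downstream of the TSS averaged 96.1% to 100%. Levels were lower in the next bins of the first part of the gene, from 70.3% at 370 bp to 38.4% at 470 bp and 18.4% at 570 bp, and then 3.10% at 670 bp and 5.07% at 770 bp. The bins at 470 and 570 bp held repeated values, and the other bins named from 370 bp on were varying bins. The edge bin at 370 bp (chr17:50293200-50293299, 3 CpG) varied most between samples among the varying bins of Dazl. It was at 80.2%, 100%, 89.2% and 76.0% in 0x, at 45.5%, 50.7% and 100% (lowest, median, highest) in 2x, at 80.8%, 61.3%, 75.3% and 25% in 4x and at 65.3%, 72.8% and 100% in 10x. Most treated samples were below the 0x samples, but each treated group reached into their range. Differences from 0x were -25.8 points in 2x (SE 10.8, adjusted p = 0.998 by limma), -25.7 points in 4x (SE 12.4, adjusted p = 0.975) and -10.6 points in 10x (SE 7.06, adjusted p = 0.859). Averaged over its 6 varying bins, Dazl was at 65.5% ± 1.75 (SD, n = 4) in 0x, 61.3% ± 4.74 (n = 6) in 2x, 60.1% ± 5.05 (n = 4) in 4x and 62.1% ± 2.79 (n = 6) in 10x. The exact permutation test gave p = 0.138, 0.0571 and 0.0571 for the 3 differences (two-sided), and limma adjusted p-values of 1.0, 0.974 and 0.789.

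The next genes, Mael, Tdrd1, Mov10l1 and Asz1, act in the piRNA pathway, in which small RNAs silence transposons in germ cells. Mael, a component of germ cell granules, was the 1 gene of the list whose treated groups stood clear of 0x. Its gene value, from bins at the TSS (chr1:166238700-166238799, 11 CpG) and 194 bp downstream (chr1:166238500-166238599, 13 CpG), was 84.9%, 78.9%, 88.7% and 82.0% in 0x. It was 81.2%, 90.4% and 96.2% (lowest, median, highest) in 2x, 95.6%, 93.0%, 92.5% and 90.04% in 4x, while 10x samples were at 89.96%, 92.1% and 95.1% (lowest, median, highest). Every 4x and 10x sample lay above the highest 0x sample, while 2x overlapped with 0x.

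The Mael difference was 5.93 points in 2x (SE 3.63), 9.16 points in 4x (SE 2.29) and 8.55 points in 10x (SE 1.89). Unadjusted p-values by limma were 0.136, 0.00475 and 0.00129, and none held after adjustment over 16543 genes (adjusted p = 1.0, 0.974 and 0.419). The exact permutation test (two-sided) gave p = 0.157, 0.0286 and 0.00476, of which the last pair are the smallest that these group sizes allow. Groups without overlap were found in 2.18% of all genes in 4x and in 1.37% in 10x, and in 0.659% in 2x. Within the samples labelled 1 to 12 the 10x difference was 8.23 points and within those labelled 13 to 34 it was 7.85 points, and the 4x differences were 12.4 and 5.91 points. Each range holds only part of each group, and the labels do not say whether the ranges are batches. The bins did not move alike, since the 4x difference was 11.7 points at 194 bp (adjusted p = 0.975 by limma) and 6.65 points at the TSS, whereas the 10x difference was 5.77 points at 194 bp and 11.3 points at the TSS (adjusted p = 0.778 by limma). The other 7 bins of Mael did not vary or held repeated values. With repeated values taken as missing, which brings some of these bins in, the 10x difference was -0.247 points and the 4x difference 3.71 points, so the difference rested on the pair of varying bins.

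Tdrd1, a scaffold protein of the piRNA machinery, had the lowest varying bin of the piRNA genes, 240 bp downstream of its first TSS (chr19:56826400-56826499, 13 CpG), at 81.1% over the 20 samples. Its gene value was 89.2% ± 3.23 (SD, n = 4) in 0x, 89.0% ± 8.71 (n = 6) in 2x, 90.9% ± 4.14 (n = 4) in 4x and 89.8% ± 4.57 (n = 6) in 10x. The groups overlapped throughout. In 2 bins 460 and 560 bp upstream Tdrd1 averaged 58.7% and 63.7%, both with repeated values. Another bin with repeated values, 140 bp downstream of the first TSS, averaged 73.3%. Mov10l1, an RNA helicase needed to make piRNAs, had 7 of 8 bins at 75% or more and 4 bins at 100% in all samples. All 8 bins also lay within 2 kb of a TSS of the neighbouring gene Mlc1. The Mov10l1 bin 756 bp downstream was lower, at 54.2%, with values repeated in every group. Asz1, another piRNA protein of germ cells, had 4 bins around its TSS that averaged 96.9% to 99.5%. The remaining bin of Asz1, near a predicted start site inside the gene, was at 0 in all 20 samples.

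Slc25a31 and Cox6b2 encode testis forms of mitochondrial proteins, an ADP/ATP carrier and a subunit of cytochrome c oxidase. All 9 bins of Slc25a31 averaged at least 89.5%, and its TSS bin (chr3:40708800-40708899, 13 CpG) was at 98.0%. The gene value of Slc25a31 was 96.9% ± 3.69 (SD, n = 4) in 0x, 97.5% ± 3.89 (n = 6) in 2x, 94.9% ± 2.24 (n = 4) in 4x and 96.9% ± 3.38 (n = 6) in 10x. Its widely expressed relative Slc25a4 was at 0.814%, 3.03%, 2.79% and 0.932% in the same order. Mov10, the relative of Mov10l1, was at 1.31%, 4.08%, 7.11% and 1.49%, and Cox6b1, the relative of Cox6b2, was at 1.14%, 10.0%, 1.83% and 1.88%. The Cox6b1 mean in 2x held 1 sample at 50%, with the median at 1.83%. None of the 3 relatives passed the adjusted test in any comparison.

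**Figure D4:**
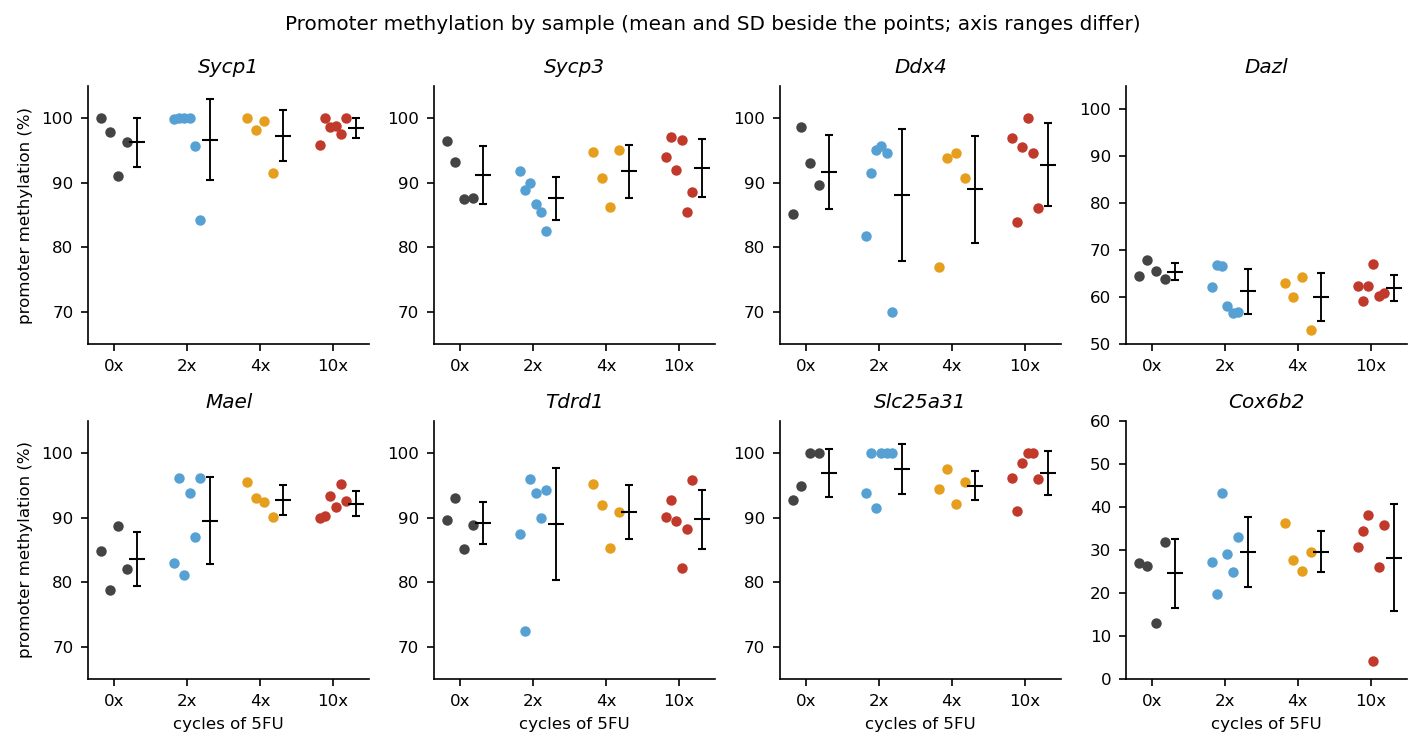
Promoter methylation (y axis, percent, mean of the varying bins) of each sample (points) for the 8 germline genes with such bins, by cycles of 5FU (x axis). The bar beside the points is the mean with the SD (n = 4, 6, 4 and 6), and only the y axis of Cox6b2 starts at 0. The 4x and 10x samples of Mael lie above all 0x samples, and the groups overlap in the other 7 panels. The Cox6b2 values come from bins 1144 and 1344 bp downstream of its TSS, and no bin nearer the TSS enters them.

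Cox6b2 was the one gene with little methylation at its promoter, and its bins did not follow a single order of the groups. The bin over its TSS (chr7:4753000-4753099, 4 CpG) shares only a few bases with the stretch printed above, and none of the CpG of that stretch. In this bin all 0x, 2x and 4x samples were listed at 0, while 10x had 1 sample at 0, 4 samples at the same value of 10.8% and 1 at 17.02%. A value shared by 4 samples is of the kind that filling gives, and how many of the 6 were measured is unknown. The bin 356 bp upstream was likewise 0 in all 14 other samples and averaged 6.32% in 10x, with a repeated value. In 2 other bins with repeated values 10x was the lowest group. At 944 bp downstream all 10x samples were at 0, and the means were 2.17% for 0x, 21.5% for 2x and 3.45% for 4x. At 244 bp 10x averaged 0.531%, against 20.7% for 0x, 22.3% for 2x and 20.1% for 4x. The bin at 344 bp was at 0 in all 0x samples and averaged 3.04% for 2x, 2.15% for 4x and 0.112% for 10x, and the bin at 444 bp was at 0 in all 20 samples.

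Cox6b2 had 2 varying bins, both near its 3′ end. The first (chr7:4751900-4751999, 4 CpG) was at 0.444%, 0.159%, 0% and 0% in 0x and at 6.21%, 8.24% and 10.5% (lowest, median, highest) in 10x. It was at 0% in 3 of the 6 samples of 2x and at 10.6% to 16.3% in the others, and at 16.1%, 15.7%, 0% and 0% in 4x, so the 2x and 4x samples fell on both sides of the 10x range. The difference of 8.07 points between 10x and 0x (SE 1.19) is given without a test, since the 10x level was what chose this gene. The 2x and 4x differences of this bin were 7.02 points (SE 4.07, adjusted p = 0.998 by limma) and 7.79 points (SE 4.36, adjusted p = 0.975). The second bin (chr7:4751700-4751799, 2 CpG) lay near 50% in every group, with means of 49.0%, 51.8%, 51.3% and 48.2%. In the bin between them, which was at 0 in all 0x and 2x samples, 4x averaged 4.75% and 10x averaged 16.96%, with 3 of its 6 samples at 0 and the highest at 52.9%.

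Over these 2 bins the Cox6b2 gene value was 24.6% ± 8.10 (SD, n = 4) in 0x, 29.5% ± 8.09 (n = 6) in 2x, 29.6% ± 4.85 (n = 4) in 4x and 28.2% ± 12.4 (n = 6) in 10x. The single samples of 0x were at 27.1%, 26.4%, 12.96% and 31.8%, and those of 10x ran from 4.31% over a median of 32.5% to 38.1%. The difference of 3.65 points between 10x and 0x was smaller than the SD of either group. It became -0.218 points without 0x sample 13 and 8.42 points without 10x sample 32. The differences in 2x and 4x were 4.95 points (SE 4.91, adjusted p = 1.0 by limma) and 5.07 points (SE 4.34, adjusted p = 0.974). Thus 10x averaged above 0x in some bins and below it in others, and the mean of the gene did not separate the groups.

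**Figure D5:**
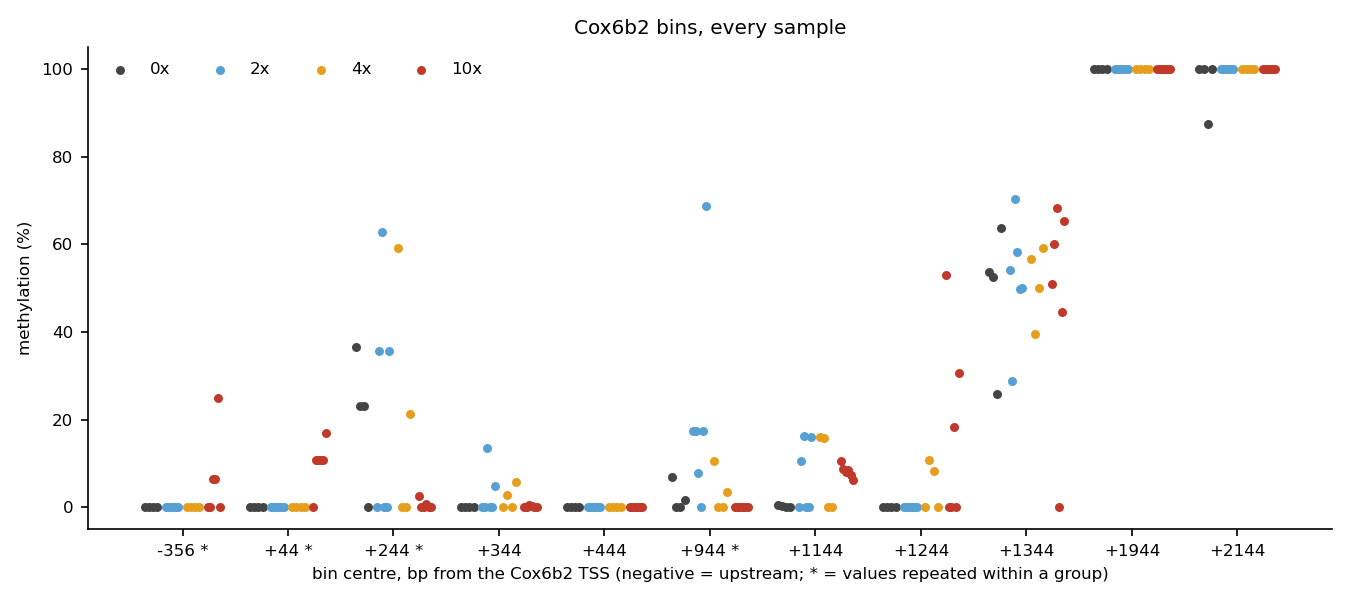
Methylation (y axis, percent) of every sample in the 11 bins of Cox6b2, ordered by distance of the bin centre from its TSS (x axis, bp, not to scale), with colours for the groups. Asterisks mark bins with values repeated within a group. At +1144 all 10x samples lie between 6.21% and 10.5% and all 0x samples under 1%, at +1344 the groups lie around 50%, and both bins farthest downstream are near 100%. The gene was chosen for its 10x level.

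Across the list, no gene passed an adjusted p of 0.05. In 2x and in 4x, 0 of the 8 genes were called by limma, with 0.0% and 0.0% of all 16543 genes called in those comparisons. In 10x, 0 of 7 genes were called (Cox6b2 was not tested), with 0.00604% of all genes called, and for the slope over the number of cycles 0 of 7, with 0.0% of all genes called. At an unadjusted p under 0.05 the list had 0 genes in 2x (3.63% of all genes), and only Mael in 4x (3.74%), in 10x (6.37%) and for the slope (3.78%). The slope of Mael was 0.623 points per cycle (SE 0.273, adjusted p = 0.979 by limma). The median difference of the genes tested was 0.0673 points in 2x, 0.772 points in 4x and 1.09 points in 10x, beside 0.239, -0.0394 and 0.0517 points over all genes. With 7 or 8 genes tested, 1 such gene is within 1 gene of the share over all genes.

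Of the varying bins, 0 of 20 were called in 2x, 0 of 20 in 4x and 0 of 18 in 10x (adjusted p under 0.05 by limma and a difference of at least 10 points), where 0.00357%, 0.00713% and 0.0131% of all 84131 varying bins were called. At an unadjusted p under 0.05 and 10 points, 1 bin passed in each comparison, namely the edge bin of Dazl in 2x, the Mael bin at 194 bp in 4x and the Mael TSS bin in 10x, where the shares of all bins were 2.86%, 2.85% and 4.18%. No pair of treated groups differed by an adjusted p under 0.05 in the genes tested, with adjusted p-values of at least 0.826 by limma in 1 fit over the 4 groups. Cox6b2 was tested there only between 4x and 2x, and Mov10l1 and Asz1 were not tested. When repeated values were kept as deposited, 3 of 9 genes were called in 10x, where 19.15% of all 27922 genes were called, namely Ddx4, higher by 9.49 points, Asz1, higher by 3.19 points, and Sycp3, with a difference of -8.95 points. Repeated values shrink the spread within a group, so those calls are not counted here.

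The state of this list was set beside 49 other genes of meiosis, the piRNA pathway and germ cell regulation. Of these, 23 had varying bins, and they did not share a single level: 9 were at least 75% and 8 under 25%, with a median of 43.5%. The highest were Sohlh2 (98.4%), a transcription factor of early germ cells, Tex14 (97.6%), a protein of the bridges between germ cells, and Tex101 (96.3%), a germ cell surface protein. The lowest were Tdrd7 (1.52%), Zcwpw1 (1.86%) and Mei4 (2.77%), the last a protein needed for meiotic DNA breaks. Over all deposited bins 46 of the 49 genes had a value, and their median was 78.0%. In 2x, 4x and 10x, 0 of 23 were called by limma. At an unadjusted p under 0.05 there were 0 of 23 in 2x and 2 higher in 4x (3.74% of all genes), Nanos2 by 11.96 points and Tex14 by 4.29 points. In 10x, where 6.37% of all genes passed, Tex14 (3.48 points) and Tex101 (2.65 points) were higher and Boll was lower (-9.75 points, adjusted p = 0.347). These genes were named after their values were seen. The genes of the repressor complex and of the DNA methyltransferases themselves had low methylation, with all 12 of 15 that had varying bins under 25% and a median of 2.75%, beside 4.71% over all genes. Over all deposited bins their median was 23.6%, beside 44.9% over all genes, and 9 of 15 were under 25%. The lowest were Pcgf6 (1.77%), Max (2.42%) and Rnf2 (2.46%), and the highest were E2f6 (4.17%), Mga (3.56%) and Ehmt2 (17.7%). Of these 12, 0 were called in any comparison, and at an unadjusted p under 0.05 E2f6 was lower in 2x (-3.09 points, with 3.63% of all genes passing) and Dnmt3a higher in 10x (1.79 points, with 6.37% passing).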

How the data were processed

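DNA methylation was measured in 20 HSC samples of 4 groups, given by the labels. The percent values deposited by the authors are the share of methylated reads in 100-bp bins. Per the labels and methods, the authors' reads passed through Trim Galore 0.4.3 (base quality above 25) before they were aligned with Bismark 0.23.1 to mm10, methylKit 1.22.0 was used, positions needed at least 10 reads, and the authors filled bins missing from a sample with the mean of its group. Read counts are not used here, so the depth of each sample is unknown and no counting interval is given. A filled value has no spread of its own, and filled values at 0 or 100 cannot be told from measured ones. The same holds for a group average that occurs only once in its group, so varying bins may include filled values.

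Bins were matched to RefSeq start sites of GRCm38.p6 within 2 kb. Bin starts were taken as 1-based, since 1201705 of the 1201951 bins then held a CpG, against 1199570 if 0-based. Gene values are means over varying bins (every group varies, no value other than 0 or 100 repeated within a group). Comparisons of 2x, 4x and 10x with 0x each used a fit of the 2 groups concerned by limma 3.58.1 in R 4.3.3 over all genes or bins with Benjamini-Hochberg adjustment, and single gene values by an exact permutation test over samples. The code was tested on simulated data.

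The members and the lists were chosen with earlier results of these data known. Genes named were all 10 listed genes and 3 relatives; of the wider and repressor lists, members called and the 3 highest and 3 lowest in level; the 5 genes most correlated with Cox6b2; and every bin of Cox6b2 and, of other members, the bin nearest a TSS and any called. Other genes and bins named were chosen after their values were seen. Alternatives were other bin sets, distances, start sites, scales, spreads, minimum differences, the label series (1 to 12 and 13 to 34) as a block, and each sample left out.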

Additional observations from a re-analysis of the deposited data

Results flagged for a closer look

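Of 32 gene values by group (8 genes in 4 groups), 3 held a sample that stood far from the rest of its group by Dixon's criterion, which chance meets in about 1 group in 20. Cox6b2 in 10x sample 32 was at 4.31%, with the nearest sample at 26.0%. Sycp1 in 2x sample 18 was at 84.3%, with the nearest at 95.7%. Tdrd1 in 2x sample 4 was at 72.4%, with the nearest at 87.4%. They were 3 different samples, and their cause was not tested.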

How the results depend on the processing

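No paired analysis was possible because the groups share no sample numbers. No listed gene or bin was called with groups at 0 or 100 throughout allowed, at 1 kb, with curated start sites only, on the log2 ratio scale, with 1 fit over all groups (not run for the slope), with a variance trend, with the label series as a block, at 5 or 20 points, or without any single sample, where all counts stayed at 0. With all deposited bins, repeated values included, calls rose to 2 genes in 2x, 3 in 10x and 2 for the slope, to 7, 2 and 5 bins in 2x, 4x and 10x, to 21 in the wider germline list and to 6 among the repressor genes, both summed over the comparisons. Under that setting 25.9%, 15.9%, 19.15% and 11.8% of all genes were called in 2x, 4x, 10x and for the slope, and 14.04%, 9.96% and 10.8% of all bins in 2x, 4x and 10x. With repeated values as missing, 1 gene (Slc25a31) was called in 2x (4.27% of all genes), 1 bin (of Sycp1) in 10x (0.999% of all bins) and 1 in the wider list. The median level was 93.5% with groups at 0 or 100 allowed and 89.9% to 90.4% without single samples. The Cox6b2 difference in 10x ranged from -0.218 to 8.42 points without single samples. Fits of the spread and the block do not apply to that median, and the alternatives for the other lists and single genes were added after the data were seen.

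Differences of single genes changed sign in other settings, those of Mael and Dazl included. With repeated values as missing, they became 1.10 (4x) and 5.26 points (10x) for Dazl, 6.65 (4x) for Ddx4, -0.247 (10x) for Mael, -1.40 (4x) and -2.17 (10x) for Sycp1, -0.739 (4x) and -2.92 (10x) for Sycp3, 0.191 (2x) for Tdrd1 and 0.675 (4x) for Slc25a31. With all deposited bins they became 0.820 (10x) for Dazl, 6.65 (4x) for Ddx4, -6.54 (2x) for Mael, -1.39 (4x) and -2.79 (10x) for Sycp1, -0.657 (4x) and -8.95 (10x) for Sycp3 and 1.23 (4x) for Slc25a31. With groups at 0 or 100 allowed they became -0.346 (4x) for Sycp1, -1.45 (10x) for Sycp3, 2.87 (2x) for Tdrd1 and -2.79 (10x) for Slc25a31. On the log2 ratio scale Tdrd1 was at 0.18 in 2x and Slc25a31 at -0.14 in 10x, where the block gave -0.878 points. Without single samples, Ddx4 ranged from -5.67 to 0.112 (2x), -4.78 to 1.42 (4x) and -0.965 to 3.55 (10x), Sycp1 from -1.40 to 2.81 (2x) and -0.755 to 2.91 (4x), Sycp3 from -0.710 to 2.38 (4x) and -0.165 to 2.86 (10x), Tdrd1 from -1.60 to 3.10 (2x) and -0.731 to 2.11 (10x), and Slc25a31 from -0.756 to 1.85 (2x) and -1.35 to 1.223 (10x). The cause was not tested. Depth is unknown, so a listed 0 or 100 has no counting limit, and of the 98 bins only 20 could be tested.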

Other observations

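Over the 20 samples, the genes whose value varied most like that of Cox6b2, among 7255 genes with at least 3 varying bins, were Lims1 (r = 0.743), Tnip1 (r = 0.710), Miga1 (r = 0.710), Ppp6r2 (r = 0.701) and Gm39822 (r = 0.673). These are descriptions over samples that share groups, with no test. With 7255 genes compared over 20 samples, the highest r can be large without any link to Cox6b2. The varying bin of Cox6b2 at its 3′ end with 2 CpG lay between 25.9% and 70.3% in 19 samples, and at 0.142% in 10x sample 32, the sample with the low gene value.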
